A study of Mus musculus with 12 samples.

Results

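The nuclear genes of the mitochondrial respiratory chain were followed through differentiation of mouse muscle cells, with and without a bromodomain inhibitor. The genes were taken by symbol: complex I subunits and factors (Nduf followed by a, b, c, s or v), complex II (Sdha to Sdhd), complex III (Uqcr genes and Cyc1), complex IV (Cox4 to Cox8 genes) and the ATP synthase, or complex V (Atp5 genes). This rule found 92 of the 16288 genes listed in any library, and it used no measured value. By symbol alone, 38 were counted under complex I, 4 under complex II, 9 under complex III, 17 under complex IV and 15 under complex V. The other 9 are assembly or accessory factors (Ndufaf1 to Ndufaf8 and Atp5s). Ndufa4 and Ndufa4l2 were counted under complex I by this rule, whichever complex their proteins join.

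The cells were C2C12, an immortalized mouse myoblast line that fuses into myotubes when serum is withdrawn. All 12 libraries came from this single line, in 6 groups of 2 libraries named A and B, which the labels call biological duplicates. Proliferating cells (GM) were kept in 10% fetal bovine serum, and differentiating cells (DM) were harvested 24 h or 48 h after a change to 2% horse serum with insulin. Each stage was treated with the vehicle DMSO or with 50 uM PFI-3, a small molecule that occupies bromodomains of 3 chromatin remodelling proteins (BRM, BRG1 and PB1). Both treatments began 12 h before harvest or induction and were renewed every 24 h in DM. No group carried a genetic change by the labels. In bulk RNA from such cultures, fewer cells of a type and less RNA per cell cannot be told apart.

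The respiratory chain passes electrons from NADH (complex I) and succinate (complex II) through complex III and cytochrome c to complex IV, cytochrome c oxidase, which reduces oxygen, and complex V makes ATP from the resulting proton gradient. Most subunits are encoded in the nucleus, and skeletal muscle replaces a few ubiquitous complex IV subunits with heart and muscle isoforms: Cox6a2 for Cox6a1, Cox7a1 for Cox7a2 and Cox8b for Cox8a. Mitochondrial content is known to increase as myoblasts become myotubes. Subunits encoded in mitochondrial DNA were not analysed here.

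Expected counts per library summed to between 12576374 and 13658352, and the 92 genes held 0.932% to 1.22% of them. Levels of different genes are compared below in FPKM, which is scaled by transcript length and library size, and levels of 1 gene between libraries in CPM, the TMM-scaled count relative to library size. A gene was called when edgeR's quasi-likelihood test gave an adjusted p under 0.05 (Benjamini-Hochberg over 12545 genes). Beyond the word duplicates, nothing says that A and B were separate cultures, so these p-values measure the spread between these libraries, which may be technical. The GM libraries were the least alike within a group: the SD over genes of the log2 ratio of library B to library A was 0.333 (DMSO) and 0.301 (PFI-3) in GM, and 0.138 to 0.151 in the 4 DM groups. For the respiratory chain genes alone these SDs were 0.147 and 0.169 in GM and 0.096 to 0.129 in DM. All 7 myoblast markers were present, 6 of them higher at 48 h than in GM in DMSO, and the 8 markers of differentiated muscle summed to 6.28 to 11.5 CPM in GM and to 992 to 16680 CPM in DM. Marker lists of fat cells, endothelial cells and bone or cartilage cells summed to at most 1.80 CPM in any library and that of macrophages and leukocytes to at most 9.55 CPM.

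Levels spanned several orders of magnitude. The most abundant members by mean FPKM over the 12 libraries were Atp5b, the catalytic beta subunit of ATP synthase (830 FPKM), Cox6a1 (548 FPKM), Atp5g2, which encodes the membrane c subunit (505 FPKM), Cox8a (494 FPKM) and Atp5a1, the alpha subunit (404 FPKM). Only 4 genes failed the low-count filter, and all 4 are isoforms or paralogs of other members: Cox4i2 and Cox7b2 had 4 counts each over the 12 libraries, and Cox6b2 and Ndufa4l2 had 20 counts each. The other 88 were tested. Among those that passed, Cox7a1 (2.01 FPKM), Atp5s (2.77 FPKM) and Ndufaf5 (3.74 FPKM) had the lowest means. The deposited count of Ndufaf7 was fractional in 11 of 12 libraries, which means reads shared with other transcripts, so its values are less certain.

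Differentiation in DMSO raised the respiratory chain genes broadly, and mostly between 24 h and 48 h. At 24 h against GM, 26 rose and 13 fell of the 88 tested, where 60.6% of all tested genes were called (30.6% higher and 30% lower). The median log2 fold change was 0.10 for the 88 and 0.02 for all genes. At 48 h against GM, 62 rose and 5 fell, with 73.1% of all genes called (37.2% higher), and the medians were 0.39 and 0.03. Between 24 h and 48 h, 58 rose and 1 fell against 48.1% of all genes called (24.2% higher), with medians of 0.29 and 0.01. Without overlap between the groups, 43 were above and 23 below at 24 h against GM (40.9% and 39.1% of all genes), 74 and 5 at 48 h against GM (44.2% and 41.8%), and 74 and 4 between 24 h and 48 h (39.9% and 39.5%). With any 1 of the 4 libraries left out, 20 of the 39, 57 of the 67 and 36 of the 59 called genes stayed called in these 3 comparisons. These comparisons share DMSO libraries with each other and with the PFI-3 comparisons below. Complex by complex at 48 h against GM, 25 of 37 complex I genes, 3 of 4 of complex II, 7 of 9 of complex III, 12 of 14 of complex IV and 12 of 15 of complex V rose. The assembly and accessory factors divided, with 3 higher and 4 lower of 9, beside 37.2% and 35.9% of all genes.

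**Figure D1:**
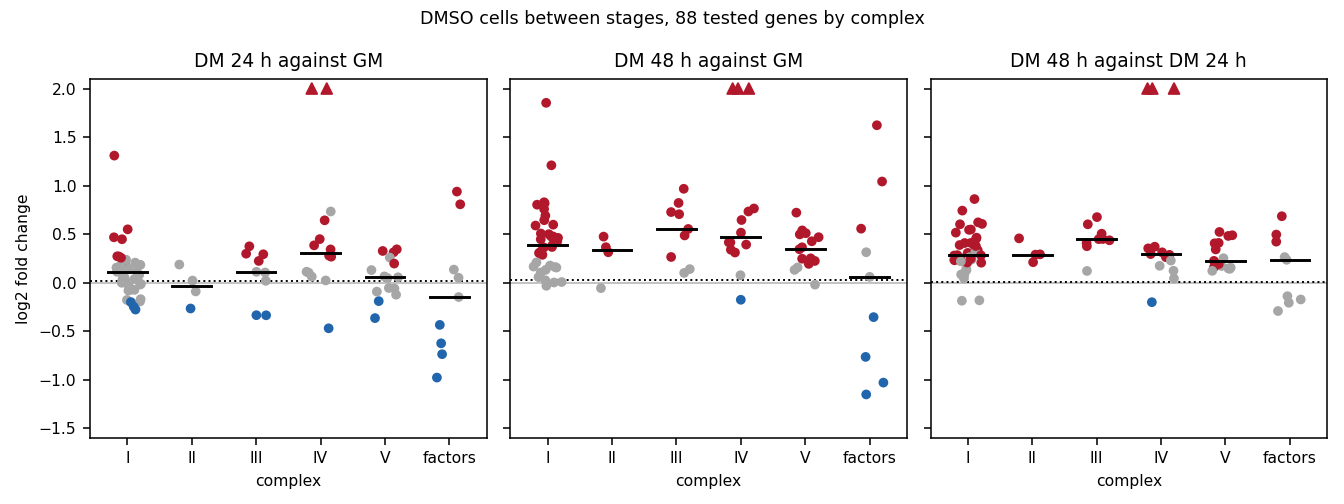
Log2 fold change (vertical axis) of the 88 tested genes between stages in DMSO cells, by complex. Red points were called higher, blue lower and grey not called, bars are medians, the dotted line is the median of all 12545 genes, and triangles are values above 2 drawn at the edge of the axis; the medians of complexes I to V all lie above 0 at 48 h.

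With PFI-3 few of these genes were called in GM and at 24 h, and part of them were lower at 48 h. In GM 3 were higher and 1 lower, where 11.6% of all tested genes were called (5.46% higher and 6.15% lower). At 24 h 3 were higher and 7 lower, against 23.6% of all genes (12.2% higher and 11.4% lower). At 48 h none was higher and 32 of 88 were lower, where 27.4% of all genes were called and 13.4% were higher and 14% lower. At an unadjusted p under 0.05, edgeR gave 0 higher and 47 lower at 48 h, and the share of all genes at that threshold is not given here. The median log2 fold change of the 88 was -0.03 in GM, -0.03 at 24 h and -0.19 at 48 h, while that of all genes was between -0.01 and 0.00. Values at 48 h were below 0 for 77 of 88 genes, and both PFI-3 libraries lay below both DMSO libraries for 61 and above them for 3, where 35.9% and 35.4% of all genes did so. At 24 h 32 lay below and 18 above without overlap (35.2% and 35.3% of all genes), and in GM 31 and 18 (24% and 21.4%). Called genes at 48 h numbered 11 of 37 in complex I, 1 of 4 in complex II, 3 of 9 in complex III, 5 of 14 in complex IV, 10 of 15 in complex V and 2 of 9 factors.

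The falls at 48 h were small for most members, and their number depended on the fit. Apart from Cox6a2 and Cox8b, the called log2 fold changes lay between -0.69 and -0.19, and 4 of the 32 passed 1.5-fold. Limma on log2(FPKM + 1) called 11 lower and 1 higher at 48 h, with a median of -0.09 for the members and 0.07 for all genes. The same fit called 6 higher and 5 lower at 24 h and 9 higher and 0 lower in GM. RLE size factors gave 1 higher and 12 lower at 24 h and 3 higher and 2 lower in GM. The split at these 2 stages thus differed between fits, and the cause was not tested. Counts of all genes called in these fits are not given here. Leaving out any 1 of the 4 libraries at 48 h left fewer members called: 7 without PFI-3 library A, 7 without DMSO library B, 15 without PFI-3 library B and 17 without DMSO library A. Of the 32, 7 stayed called in all 4 of these fits: Cox6a2, Cox8b, Ndufa6, Ndufs4, Ndufv3, Ndufa9 and Atp5g1.

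**Figure D2:**
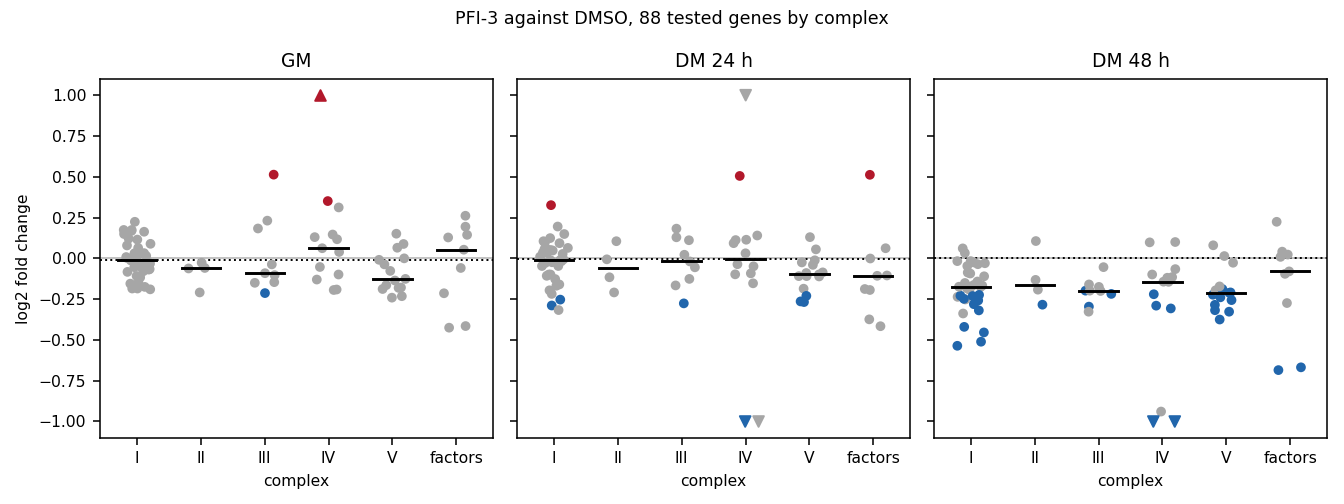
Log2 fold change of PFI-3 against DMSO (vertical axis) for the tested genes of each complex at 3 stages, coloured as red (called higher), blue (called lower) and grey (not called), with bars for the medians and a dotted line for the median of all genes. Triangles are values beyond 1 or -1 drawn at the edge (Cox6a2, Cox7a1 and Cox8b), Cox8b is left out of GM, where it had no counts, and at 48 h 77 of 88 values lie below 0.

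Summed over the genes of a complex, complex V gave 4698 and 4739 CPM in GM DMSO, 4468 and 4538 CPM at 24 h DMSO and 5357 and 5581 CPM at 48 h DMSO (libraries A and B). Its PFI-3 libraries gave 4019 and 4388, 4114 and 4079, and 4682 and 4735 CPM at the same stages. In CPM the PFI-3 sums lay below the DMSO sums at each of the 3 stages without overlap. Atp5b and Atp5a1 weigh most in these sums, at 1657 and 967 CPM in GM DMSO library A. No complex V gene was called with PFI-3 in GM. In FPKM the PFI-3 sums lay below the DMSO sums at 24 h and 48 h, but overlapped them in GM, at 3993 and 4280 in DMSO and 3899 and 4169 with PFI-3. Complex I gave 2956 and 3082 CPM at 48 h in DMSO and 2595 and 2735 CPM with PFI-3, and its CPM sums overlapped between the treatments in GM and at 24 h. Its FPKM sums were higher with PFI-3 at these stages, at 3221 and 3272 against 2940 and 3116 in GM and 3404 and 3503 against 3323 and 3365 at 24 h, and lower at 48 h, at 3663 and 3844 against 3916 and 4036. Over all 92 genes the sum with PFI-3 at 48 h was 87.8% of the DMSO sum in CPM (SD 3.39, n = 2 per group) and 94.0% in FPKM (SD 3.53). In GM the 2 scales lay on opposite sides of 100%, at 94.1% in CPM and 103% in FPKM, as they did at 24 h, at 96.1% and 102%.

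**Figure D3:**
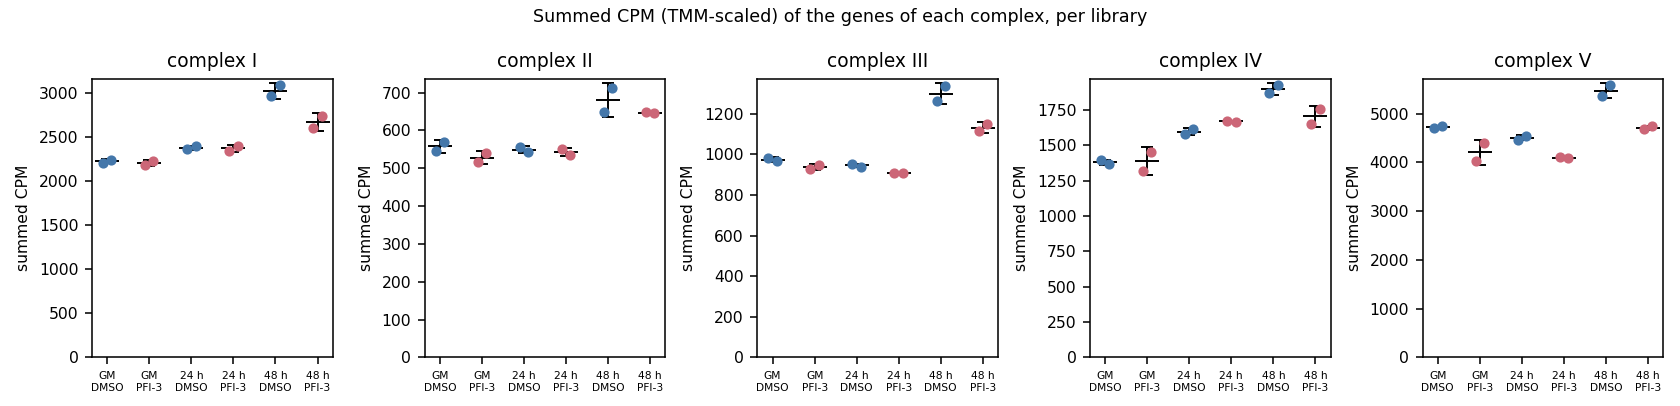
Summed CPM (vertical axis, from 0) of the genes of complexes I to V in each of the 12 libraries; points are libraries, blue for DMSO and red for PFI-3, and black bars are the mean and SD of 2. The mean sum was highest at 48 h in DMSO for every complex, and the PFI-3 sums at 48 h lay below both DMSO sums except in complex II, where one PFI-3 library (649 CPM) lay just above the lower DMSO library (648 CPM).

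Among complex I subunits, Ndufv3 and Ndufa6 rose most with differentiation and were lower with PFI-3 at 48 h. Ndufv3 (chromosome 17, 31520115 to 31531326) encodes a small subunit of the NADH-oxidizing module. In DMSO it measured 25.1 and 22.5 CPM in GM, 62.9 and 55.0 CPM at 24 h and 82.9 and 88.9 CPM at 48 h. With PFI-3 it measured 25.7 and 27.1, 60.6 and 67.9, and 60.1 and 65.4 CPM. The treatments overlapped at 24 h and were apart at 48 h, where DMSO was higher. The rise in DMSO was 1.85 on the log2 scale at 48 h against GM (SE 0.10, edgeR adjusted p = 5.38e-09), and PFI-3 gave -0.45 at 48 h (SE 0.09, edgeR adjusted p = 0.003).

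Ndufa6 (chromosome 15, 82350139 to 82354291) encodes an accessory subunit of the LYR protein family on the matrix arm. DMSO libraries gave 41.3 and 43.3 CPM in GM, 56.3 and 60.6 CPM at 24 h and 92.9 and 103 CPM at 48 h, against 46.9 and 48.5, 62.1 and 57.7, and 68.4 and 66.4 CPM with PFI-3. The PFI-3 libraries were the higher pair in GM, overlapped DMSO at 24 h and were the lower pair at 48 h. Its log2 fold change with PFI-3 was -0.54 at 48 h (SE 0.08, edgeR adjusted p = 0.000266), and 0.17 in GM, where it was not called.

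Ndufs4 (chromosome 13, 114287795 to 114388094), an accessory subunit whose loss causes Leigh-like encephalopathy, rose only late. It measured 27.0 and 24.7 CPM in GM, 24.6 and 21.3 CPM at 24 h and 42.9 and 40.4 CPM at 48 h in DMSO, and 28.7 and 29.8 CPM at 48 h with PFI-3. Both 48 h treatments lay above every GM and 24 h library, and PFI-3 lay below DMSO (log2 fold change -0.51, SE 0.09, edgeR adjusted p = 0.00156). Ndufa9 (chromosome 6, 126821863 to 126849144), which stabilizes the junction of the matrix and membrane arms, gave 89.3 and 100 CPM in DMSO and 68.7 and 72.9 CPM with PFI-3 at 48 h (-0.42, SE 0.07, edgeR adjusted p = 0.0013). It was also called at 24 h, at 74.4 and 75.9 CPM against 61.1 and 65.0 CPM (-0.25, SE 0.08, edgeR adjusted p = 0.0294), a call lost without any 1 of the 4 libraries at 24 h (adjusted p of 0.111 and 0.154 without DMSO A or B, 0.203 and 0.0749 without PFI-3 A or B).

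Ndufs3, a core subunit of the matrix arm, gave 57.9 and 64.8, 70.1 and 64.9, and 104 and 104 CPM at the 3 stages in DMSO and 81.5 and 89.3 CPM at 48 h with PFI-3. The PFI-3 pair lay below the DMSO pair at 48 h (-0.28, SE 0.08, edgeR adjusted p = 0.0203). The call was lost without PFI-3 library A (0.181), DMSO library A (0.0951) or DMSO library B (0.094). Of the other complex I genes called at 48 h, Ndufs8, Ndufb4, Ndufv1, Ndufc2 and Ndufb9 gave log2 fold changes from -0.32 to -0.23. Ndufv1 and Ndufb9 kept the call in 1 of the 4 fits with a 48 h library left out, and Ndufs8, Ndufb4 and Ndufc2 in none.

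**Figure D4:**
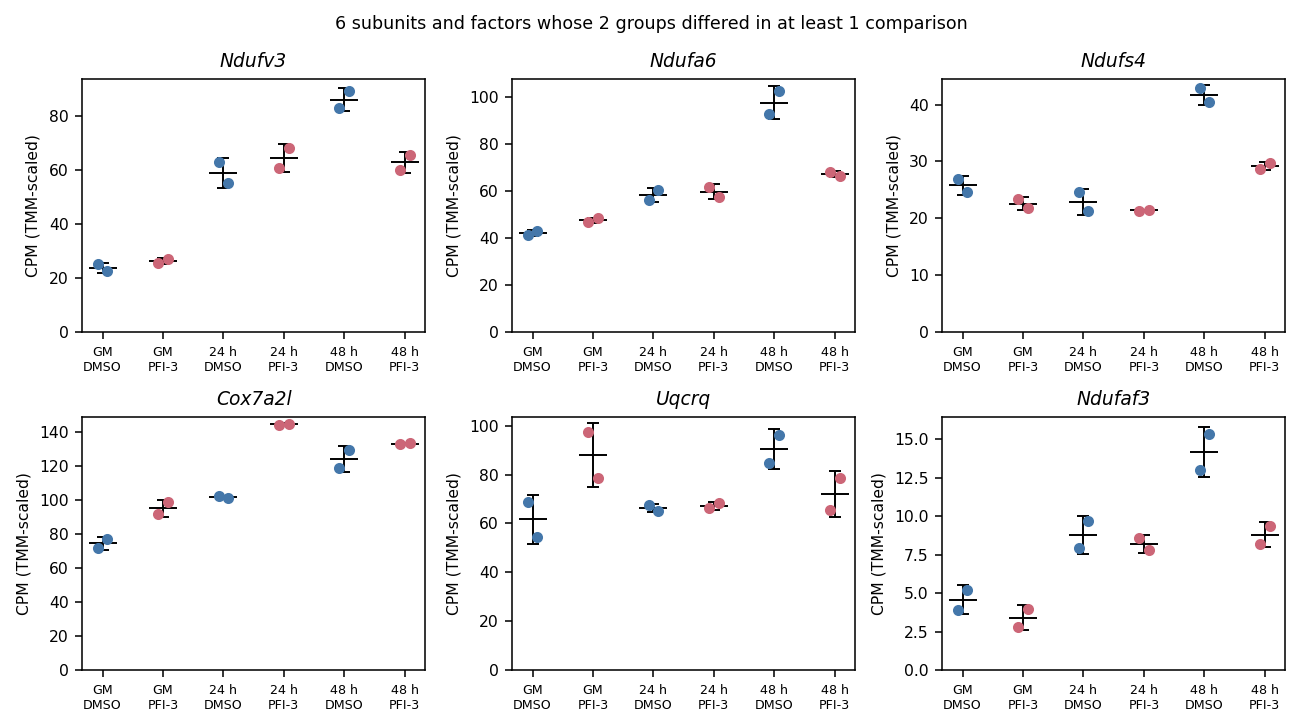
CPM (vertical axis, from 0) of Ndufv3, Ndufa6, Ndufs4, Cox7a2l, Uqcrq and Ndufaf3 in each library, with DMSO in blue, PFI-3 in red and the mean and SD of 2 in black. PFI-3 lies below DMSO at 48 h for Ndufv3, Ndufa6, Ndufs4, Uqcrq and Ndufaf3, whereas Cox7a2l lies above it in each stage.

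Complex II also belongs to the citric acid cycle. In DMSO 3 of its 4 genes were called higher at 48 h against GM, where 73.1% of all genes were called and 37.2% higher. With PFI-3 at 48 h 1 of 4 was called lower, where 27.4% of all genes were called and 14% lower. So few genes cannot set a share apart from that of all genes. Sdha, the flavoprotein, gave 213 and 206 CPM in GM, 213 and 213 CPM at 24 h and 248 and 272 CPM at 48 h in DMSO, against 198 and 213, 230 and 228, and 285 and 275 CPM with PFI-3, and was called in no PFI-3 comparison. Its 48 h PFI-3 libraries lay above both DMSO libraries. Sdhb, the iron-sulfur subunit, gave 111 and 128 CPM in DMSO and 96.3 and 101 CPM with PFI-3 at 48 h. It was called lower (-0.28, SE 0.08, edgeR adjusted p = 0.0153), but not without PFI-3 library A (0.118), PFI-3 library B (0.0547) or DMSO library B (0.177).

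In complex III the rise at 48 h was led by Uqcrfs1, the Rieske iron-sulfur protein. It measured 70.6 and 67.9 CPM in GM, 89.7 and 79.9 CPM at 24 h and 132 and 139 CPM at 48 h in DMSO (log2 fold change 0.97 at 48 h against GM, SE 0.09, edgeR adjusted p = 5.32e-07). Cyc1, cytochrome c1, went down before it went up: 244 and 247, 199 and 189, and 293 and 296 CPM at GM, 24 h and 48 h, with called changes of -0.34 and then 0.60 between successive stages. Uqcrc1, a core protein, showed the same order at 224 and 222, 176 and 177, and 238 and 240 CPM.

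With PFI-3 at 48 h Uqcrfs1 gave 106 and 114 CPM (-0.30, edgeR adjusted p = 0.0194), below both DMSO libraries, and lost its call without DMSO library A (0.0557), DMSO library B (0.131) or PFI-3 library A (0.156). Uqcrq, a small subunit at the ubiquinone site, was called with PFI-3 in GM and not at 24 h or 48 h. In GM it gave 68.7 and 54.6 CPM in DMSO against 97.2 and 78.7 CPM. Its log2 fold change there was 0.51 (SE 0.13, edgeR adjusted p = 0.0256). That call was lost without PFI-3 library A (0.117), without DMSO library B (0.0686) and in a fit of the 4 GM libraries alone (0.286), but not in that fit with the replicate letter added (0.0117). Uqcrc1 was lower with PFI-3 in GM, at 189 and 196 CPM (-0.21, edgeR adjusted p = 0.0359), with the call lost without DMSO library A (0.0602) or PFI-3 library A (0.103) and in the GM-only fit (0.462).

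In complex IV the muscle isoforms gave the widest changes of the whole set. Cox6a2 (chromosome 7, 128205435 to 128206366) was listed at 0.12 and 0 FPKM in GM, 7.81 and 7.95 FPKM at 24 h and 121 and 120 FPKM at 48 h in DMSO. With PFI-3 it gave 4.14 and 2.32 FPKM in GM, 1.97 and 2.10 FPKM at 24 h and 32.7 and 35.6 FPKM at 48 h. PFI-3 was the higher pair in GM and the lower pair at 24 h and 48 h, without overlap at any stage. The log2 fold change with PFI-3 was -2.00 at 24 h (SE 0.26, edgeR adjusted p = 0.000227) and -1.91 at 48 h (SE 0.13, edgeR adjusted p = 1.45e-06), a 3.75-fold lower level at 48 h. In GM the difference rested on 33 and 19 counts against 1 and 0, a ratio of 49.2 with an exact 95% counting interval of 8.46 to 1981. The edgeR adjusted p in GM was 0.000397 and was 0.129 in a fit of the 4 GM libraries alone and 0.00592 in that fit with the replicate letter added.

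Cox8b (chromosome 7, 140898942 to 140900446) had no count in any of the 4 GM libraries. At 24 h it gave 4.17 and 2.02 FPKM in DMSO and 1.04 and 1.30 FPKM with PFI-3, from 24 and 9 counts in all. At 48 h it gave 47.1 and 46.2 FPKM in DMSO and 21.0 and 24.1 FPKM with PFI-3. Against a floor of 3 counts per library, DMSO cells were at least 4.12-fold higher at 24 h and at least 65.3-fold higher at 48 h than in GM. PFI-3 lowered it 2.21-fold at 48 h (log2 fold change -1.15, SE 0.21, edgeR adjusted p = 0.00271). The 24 h libraries did not overlap either, but the gene was not called there (log2 fold change -1.43, edgeR adjusted p = 0.0652). It was called at 24 h without DMSO library B (0.0436), without the 4 GM libraries (0.0269) and by limma on log2(FPKM + 1) (0.0115).

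Cox7a1 (chromosome 7, 30184171 to 30186030) stayed low throughout. Counts were 2 and 1 in GM and 28 and 20 at 48 h in DMSO, a ratio of 17.2 with an exact 95% counting interval of 5.53 to 86.1, and the rise was called (edgeR adjusted p = 0.000483). At 48 h DMSO gave 6.97 and 4.92 FPKM and PFI-3 gave 2.57 and 4.02 FPKM, which did not overlap. This difference was not called (log2 fold change -0.94, edgeR adjusted p = 0.199), and at this depth a call came from fits of the 48 h libraries alone, with an adjusted p of 0.0383 at the lowest, and from no other alternative.

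The ubiquitous partners were abundant in both treatments. Cox6a1 gave 495 and 481 FPKM at 48 h in DMSO and 557 and 558 FPKM with PFI-3, Cox8a gave 576 and 538 FPKM and 522 and 576 FPKM, and Cox7a2 gave 127 and 137 FPKM and 126 and 143 FPKM. None of the 3 was called with PFI-3 at any stage in the fit of 12 libraries, with log2 fold changes at 48 h of 0.10, -0.12 and -0.07 (edgeR adjusted p = 0.376, 0.391 and 0.66). In fits of the compared libraries alone, Cox6a1 was called higher at 24 h (0.10, adjusted p of 0.0439 at the lowest) and, only with the replicate letter added, at 48 h (0.10, 0.049). Cox8a was called higher at 24 h in these fits and without the GM libraries (0.11, 0.0155 at the lowest), and lower at 48 h with the replicate letter added (-0.12, 0.0145) or without the GM libraries (-0.12, 0.0383). Cox8a rose in DMSO, from 166 and 155 CPM in GM to 280 and 264 CPM at 48 h (0.76, SE 0.09, edgeR adjusted p = 1.10e-05). As a share of the FPKM of each isoform pair, Cox6a2 was 19.8% ± 0.17 of Cox6a2 plus Cox6a1 at 48 h in DMSO and 5.77% ± 0.31 with PFI-3 (SD, n = 2). Cox8b was 7.73% ± 0.25 and 3.94% ± 0.11 of its pair, and Cox7a1 was 4.34% ± 1.24 and 2.37% ± 0.52. At 24 h the Cox6a2 share was 1.33% ± 0.0064 in DMSO and 0.312% ± 0.010 with PFI-3. The muscle isoforms remained the minor member of each pair in every library.

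**Figure D5:**
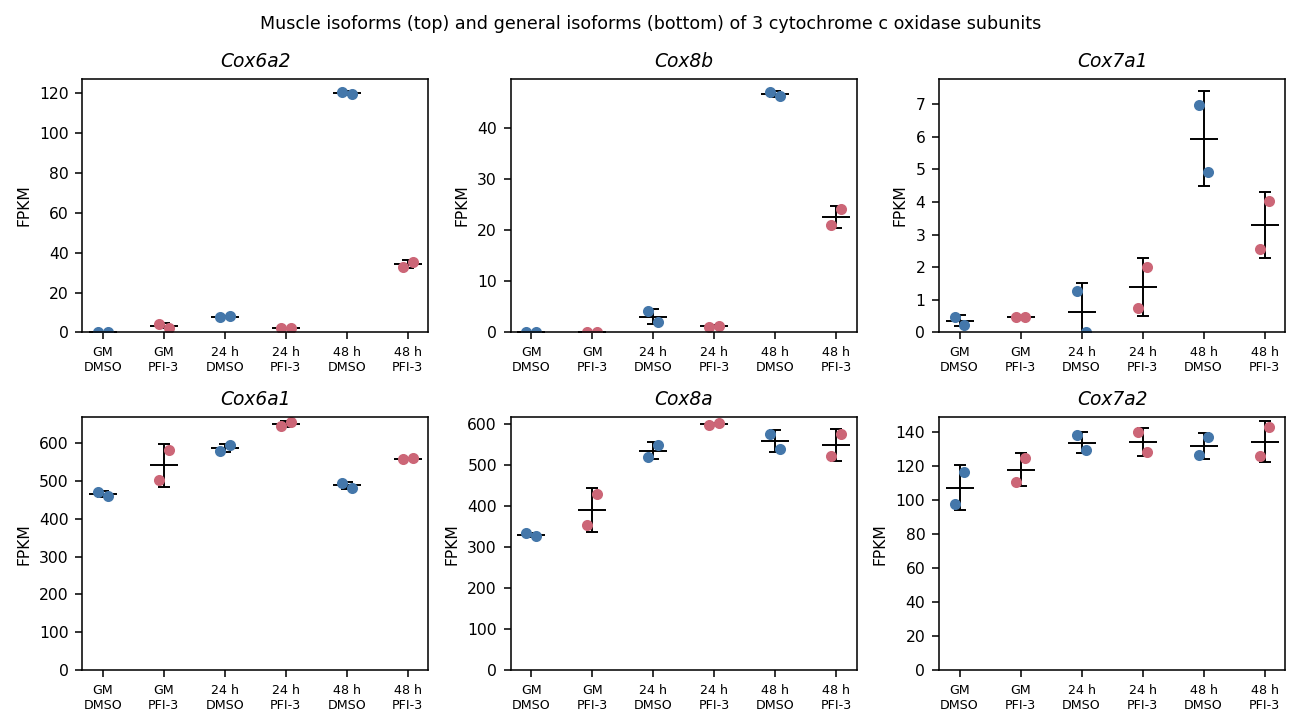
FPKM (vertical axes, from 0, each on its own scale) of 3 muscle isoforms (top) and their ubiquitous partners (bottom) in each library, with DMSO in blue, PFI-3 in red and the mean and SD of 2 in black. Cox6a2, Cox8b and Cox7a1 are highest at 48 h in DMSO and lower at 48 h with PFI-3, where the Cox7a1 difference was not called. In GM Cox6a2 is higher with PFI-3. Cox6a1, Cox8a and Cox7a2 are present in every library.

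The stretch of 250 bases before the annotated start (RefSeq, GRCm38.p6, each on the minus strand, 5′ to 3′) is shown for Cox8b, because it had no counts in GM and was present in DM, beside its ubiquitous partner Cox8a, beside Cox6a1 and beside Ndufa6. The regions are chr7:140900447-140900696 for Cox8b, chr19:7217617-7217866 for Cox8a, chr5:115348959-115349208 for Cox6a1 and chr15:82354292-82354541 for Ndufa6. Capitals mark CAGCTG, an E-box of the type bound by myogenic factors, in Cox8b and the NRF1 core GCATGCGC in Ndufa6. In Cox6a1 they mark the full NRF1 motif and the reverse complement of the ETS motif CCGGAAG. Cox8a holds a CCGGAAG match as well, but not wholly within the 250 bases shown, so it has no capitals. NRF1 and the ETS factor GABP are known regulators of respiratory genes.
Cox8b: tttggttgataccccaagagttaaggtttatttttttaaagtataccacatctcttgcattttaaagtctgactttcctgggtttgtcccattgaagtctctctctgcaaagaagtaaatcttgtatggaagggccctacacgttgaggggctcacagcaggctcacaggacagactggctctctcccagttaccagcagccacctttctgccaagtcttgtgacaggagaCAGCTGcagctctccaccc
Cox8a: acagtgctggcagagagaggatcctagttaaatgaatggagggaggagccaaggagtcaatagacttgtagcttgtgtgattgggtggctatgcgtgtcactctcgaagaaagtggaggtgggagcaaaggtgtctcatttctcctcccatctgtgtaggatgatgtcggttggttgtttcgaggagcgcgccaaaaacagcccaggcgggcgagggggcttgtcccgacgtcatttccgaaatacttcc
Cox6a1: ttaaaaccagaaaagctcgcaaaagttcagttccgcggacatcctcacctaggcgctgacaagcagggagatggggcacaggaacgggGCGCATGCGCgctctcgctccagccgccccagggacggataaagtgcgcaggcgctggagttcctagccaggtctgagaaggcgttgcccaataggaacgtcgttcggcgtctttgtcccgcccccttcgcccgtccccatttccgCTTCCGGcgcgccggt
Ndufa6: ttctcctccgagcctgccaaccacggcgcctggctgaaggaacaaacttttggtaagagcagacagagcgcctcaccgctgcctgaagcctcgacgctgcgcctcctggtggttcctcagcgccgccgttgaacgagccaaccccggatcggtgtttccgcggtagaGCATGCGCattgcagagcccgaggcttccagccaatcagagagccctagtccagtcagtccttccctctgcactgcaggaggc

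These letters were searched on both strands in windows from 250 bases before to 50 after the start, of which 81 belonged to 76 of the 92 genes. CAGCTG was in 6 of the 81 windows (7.41%), those of Atp5b, Cox8b, Ndufa8, Ndufb10, Ndufs5 and Ndufv2, and in 16.3% of all 32851 windows. The full NRF1 motif was in 7 (8.64%) against 0.971% of all windows and 2.0% of the windows of tested genes, and its core GCATGCGC, which lies inside it, in 12 (14.8%) against 2.71% and 5.06%. The full YY1 motif was in 5 (6.17%), those of Ndufa9, Ndufaf8, Ndufs4, Ndufs6 and Ndufs7, against 0.633% and 1.43%, and its core AAGATGG, inside it, in 12 (14.8%) against 6.34% and 6.91%. CCGGAAG was in 18 (22.2%), Cox8a and Cox6a1 among them, against 8.86% and 16.9%. The oestrogen-related receptor element TCAAGGTCA was in 2 (Atp5g3 and Sdhd), and the shorter site AAGGTCA, inside it, in 8 (9.88%) against 4.72% and 3.04%. A match describes the letters only.

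With PFI-3, Cox6a2 was called higher in GM and lower at both DM stages, Cox8b lower at 48 h, and Cox7a1 at no stage. Markers of differentiated muscle were also lower in DM. All 8 of them (Myog, Mef2c, Myh3, Ckm, Acta1, Tnnt3, Mymk and Mymx) were called lower with PFI-3 at 24 h and at 48 h, with median log2 fold changes of -1.36 and -0.75, and none in GM. Their summed level was 2409 and 2419 CPM in DMSO against 992 and 1001 CPM with PFI-3 at 24 h, and 16680 and 16640 CPM against 11090 and 10870 CPM at 48 h. Of the 7 myoblast markers, 3 were lower in GM, 4 at 24 h and 3 at 48 h, and none was higher. The part of this shift in the lower respiratory chain genes was not tested.

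Cox7a2l, which helps complexes III and IV join into supercomplexes, was called higher with PFI-3. It gave 72.0 and 77.5 CPM in GM, 103 and 101 CPM at 24 h and 119 and 130 CPM at 48 h in DMSO, and 92.0 and 98.8, 144 and 145, and 133 and 134 CPM with PFI-3. The PFI-3 pair was the higher one at each stage, without overlap. It was called in GM (log2 fold change 0.35, SE 0.07, edgeR adjusted p = 0.00929) and at 24 h (0.51, SE 0.07, edgeR adjusted p = 0.000322), and not at 48 h (0.10, edgeR adjusted p = 0.313). The GM call was lost in a fit of the 4 GM libraries alone (0.279) and kept in that fit with the replicate letter added (0.042). Its difference between the 48 h and 24 h effects was -0.40 (edgeR adjusted p = 0.0181), which held without DMSO library A of 48 h and was lost without any 1 of the other 7 libraries (adjusted p up to 0.0908).

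Cox5a, which binds the core of complex IV, ran against the others in DMSO, at 153 and 142 CPM in GM, 105 and 108 CPM at 24 h and 126 and 135 CPM at 48 h. It was the one structural subunit called lower at 48 h against GM (-0.18, SE 0.07, edgeR adjusted p = 0.0338), and that call was lost without GM library A (0.158) or 48 h library A (0.209). With PFI-3 at 48 h it gave 104 and 110 CPM, below both DMSO libraries (-0.29, edgeR adjusted p = 0.00828), a call lost without PFI-3 library A (0.0864) or DMSO library B (0.0892). Cox7b and Cox6b1 were called lower at 48 h as well, at -0.31 and -0.22, and Cox6b1 lost its call without any 1 of the 4 libraries (adjusted p of 0.102 to 0.24), Cox7b without any but PFI-3 library B (0.0839 to 0.187).

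In complex V 10 of 15 genes were called lower with PFI-3 at 48 h, beside 14% of all genes, and 1 of the 10, Atp5g1, stayed called whichever of the 4 libraries was left out. Its membrane c subunit is encoded by 3 genes with one mature protein, Atp5g1, Atp5g2 and Atp5g3, and all 3 were among them. Atp5g1 (chromosome 11, 96072793 to 96075694) gave 130 and 142 CPM in GM, 103 and 108 CPM at 24 h and 144 and 159 CPM at 48 h in DMSO, and 116 and 117 CPM at 48 h with PFI-3 (-0.38, SE 0.07, edgeR adjusted p = 0.00241). It fell at 24 h in DMSO (-0.37) and rose again by 48 h (0.52). Atp5g2 gave 329 and 332 CPM in DMSO against 279 and 280 CPM, and Atp5g3 312 and 331 CPM against 247 and 268 CPM, at 48 h. Neither pair overlapped, with log2 fold changes of -0.24 and -0.32 (edgeR adjusted p = 0.0093 and 0.00755).

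The Atp5g2 call was lost without any 1 of the 4 libraries (adjusted p of 0.0503 to 0.0629), and that of Atp5g3 without PFI-3 library A (0.0919) or DMSO library B (0.0724). Atp5a1, the alpha subunit, gave 1188 and 1210 CPM in DMSO and 1031 and 1024 CPM with PFI-3 at 48 h (-0.22, edgeR adjusted p = 0.0185), and Atp5b, the beta subunit, gave 1609 and 1709 against 1456 and 1440 CPM. Neither overlapped, Atp5b was not called, and Atp5a1 lost its call without any 1 of the 4 libraries (0.0734 to 0.108). Atp5d, Atp5e, Atp5o, Atp5j, Atp5j2 and Atp5c1 made up the rest, at -0.33 to -0.19.

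Calls among the assembly factors of complex I went both ways in DMSO. So did those over all genes, with 37.2% higher and 35.9% lower at 48 h against GM. Ndufaf3, an early assembly factor, rose from 3.92 and 5.24 CPM in GM to 7.93 and 9.68 CPM at 24 h and 13.0 and 15.3 CPM at 48 h (1.62 at 48 h, SE 0.20, edgeR adjusted p = 1.09e-05). Ndufaf2, a late-acting chaperone, fell from 13.4 and 11.8 CPM to 5.53 and 6.79 CPM (-1.03, SE 0.19, edgeR adjusted p = 0.000311), and Ndufaf4 from 41.6 and 30.3 CPM to 19.4 and 22.7 CPM (-0.77, edgeR adjusted p = 0.00392). Ndufaf6 fell from 6.43 and 7.01 CPM to 2.85 and 3.19 CPM (-1.15, edgeR adjusted p = 0.000863), and Ndufaf5 was called lower at -0.36, a call lost without any 1 of the 4 libraries (adjusted p of 0.0712 to 0.119). Ndufaf1 and Atp5s rose. None of these groups overlapped between GM and 48 h for the factors given with values.

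With PFI-3 at 48 h Ndufaf3 gave 8.23 and 9.37 CPM (-0.69, edgeR adjusted p = 0.0154) and Ndufaf7, a methyltransferase of complex I assembly, 11.4 and 12.4 CPM against 16.5 and 21.3 CPM in DMSO (-0.67, edgeR adjusted p = 0.00524). PFI-3 was the lower pair for both. Ndufaf3 lost its call without DMSO library B (0.13) or without either PFI-3 library (0.126 and 0.052), and Ndufaf7 without PFI-3 library A (0.0571) or DMSO library B (0.0749). Ndufaf2, Ndufaf4 and Ndufaf6 were called in no PFI-3 comparison. At 24 h Ndufaf8 was higher with PFI-3, at 7.38 and 6.48 CPM against 5.39 and 4.33 CPM (0.51, edgeR adjusted p = 0.0413), a call lost without any 1 of the 4 libraries (0.0578 to 0.261).

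The 7 other genes called with PFI-3 at 24 h were small changes and one complex at a time: Ndufs5 (-0.29) and Ndufa2 (0.33) in complex I, Uqcrb (-0.28) in complex III and Atp5o (-0.27), Atp5f1 (-0.26) and Atp5g1 (-0.23) in complex V, with Ndufa9 as above. Atp5f1 kept its call in 1 of the 4 fits without a 24 h library and the rest of these in none, while Cox6a2 and Cox7a2l kept theirs in all 4. Leaving out DMSO library A, DMSO library B, PFI-3 library A or PFI-3 library B left between 2 and 4 members called at 24 h. A fit without the 4 GM libraries called 31 members, and its count over all genes is not given here.

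The effect of PFI-3 itself was compared between stages with an interaction contrast. Cells of a later stage had also been treated longer, so stage and length of treatment cannot be told apart in it. Against GM, the effect at 48 h was lower for 7 of 88 genes and higher for none, where 14.5% of all tested genes were called (8.25% higher and 6.29% lower). These were Cox6a2 (-7.21, a fitted value that rests on 1 count in GM DMSO and lay between -9.53 and -3.75 over the alternatives), Uqcrq (-0.84), Ndufa6 (-0.71), Ndufv3 (-0.60), Uqcr10 (-0.43), Ndufb4 (-0.38) and Ndufb10 (-0.33). Against 24 h, it was lower for 5 and higher for none, where 12.1% of all genes were called (7.12% higher and 4.97% lower). Among them were Ndufv3 (-0.58), Ndufa6 (-0.57), Cox7a2l (-0.40) and Ndufs3 (-0.39). The median difference of the 88 was -0.13 against GM and -0.14 against 24 h, beside 0.02 and -0.01 for all genes. At an unadjusted p under 0.05, edgeR gave 0 higher and 21 lower against GM and 0 higher and 19 lower against 24 h. The share of all genes at that threshold is not given here. Ndufa6 stayed called in both contrasts with any 1 library left out, and Cox6a2 in the first, while each of the others lost its call in at least 1 such fit.

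Neighbouring mitochondrial and glycolytic genes did not all move with the respiratory chain. Of all tested genes, 37.2% were called higher and 35.9% lower at 48 h against GM in DMSO. With PFI-3 at 48 h, 13.4% were called higher and 14% lower. Mitochondrial ribosome proteins went the other way in DMSO, with 47 of 77 lower and 5 higher at 48 h against GM (median -0.34), and 3 lower and none higher with PFI-3 at 48 h (median -0.04). Of 34 assembly factors of complexes II to V, 17 rose and 7 fell at 48 h in DMSO, and 1 of each was called with PFI-3. Of 13 citric acid cycle genes, 6 rose and 5 fell in DMSO, near the shares of all genes. Idh3g, Dlst and Sucla2 were lower with PFI-3 at 48 h, at -0.38, -0.27 and -0.37. Cycs, cytochrome c, which carries electrons from complex III to complex IV, fell in DMSO (-0.40 at 48 h) and was lower with PFI-3 at 24 h (-0.49, edgeR adjusted p = 0.000513).

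Of 18 glycolysis genes, 12 rose and 3 fell at 48 h in DMSO (median 0.59), and with PFI-3 8 were lower and 2 higher in GM (median -0.17), 2 lower and 8 higher at 24 h (median 0.23) and 12 lower and 0 higher at 48 h (median -0.52). Of all tested genes, 6.15% were called lower and 5.46% higher with PFI-3 in GM. These shares were 11.4% and 12.2% at 24 h, and 14% and 13.4% at 48 h. The muscle enolase Eno3 was called lower at all 3 stages, at -0.85 in GM, -0.61 at 24 h and -0.83 at 48 h. Of 21 tested regulators of mitochondrial biogenesis, 3 rose and 8 fell at 48 h in DMSO, beside 37.2% and 35.9% of all genes. Ppargc1a, which encodes the coactivator PGC-1 alpha, rose from 0.31 and 2.14 CPM in GM to 21.3 and 16.5 CPM at 48 h (log2 fold change 3.91, SE 0.43, edgeR adjusted p = 4.14e-06) and gave 11.9 and 10.3 CPM with PFI-3, which was lower without overlap but not called. With PFI-3 the regulators called lower were Ppargc1b, Pprc1 and Tfb2m in GM and Pprc1, Gabpa, Gabpb1 and Tfam at 24 h, and at 48 h Gabpb2 alone was called, higher (0.19). The 2 ATP synthase subunits listed under other symbols both rose in DMSO at 48 h, Usmg5 by 0.41 and 2010107E04Rik by 0.75 on the log2 scale, and 2010107E04Rik was lower with PFI-3 (-0.37).

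The genes whose profile over the 12 libraries was most like a muscle isoform, by Pearson's r of log2 CPM as a description, were Ankrd2 (0.996), Fam78a (0.996) and Myoz2 (0.995) for Cox8b. They were Fyn (0.977), Ankrd10 (0.974) and Irx3 (0.974) for Cox6a2, and B3galt2 (0.969), Vwf (0.962) and Mpc2 (0.956) for Cox7a1, whose few counts limit it. All 12 points share the same 6 groups.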

How the data were processed

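RNA sequencing of 12 C2C12 libraries was analysed from the authors' deposited tables, one per library, which list genes with an expected count, a transcript length and an FPKM value per the file headers. The deposited expected counts are estimates of reads per gene, and the deposited FPKM values are the authors' own scaling by length and library size. The submitters' processing notes name Bowtie, Cufflinks, DESeq2, HISAT, RSEM and StringTie, with no role given, and the mouse build mm10. Groups came from the labels. A gene missing from a table was taken as 0: in 6963 cases a gene was listed in 1 of 2 libraries of a group, with a median count of 1 and 97% of them at 5 counts or fewer.

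Expected counts were rounded and tested with edgeR 4.0.16 in R 4.3.3 (TMM scaling, default low-count filter, 6 group means over 12 libraries, quasi-likelihood test, Benjamini-Hochberg adjusted p under 0.05). CPM are these counts relative to the scaled library size. A count floor of 3 per library and exact 95% intervals were used for genes near 0, and both cover counting error only. The fit was tested on simulated data: of 200 genes changed 2-fold among 12545, in the comparison of PFI-3 with DMSO at 48 h, 84% were called, and 7.2% of the calls were false. The simulated libraries had the same mean per gene at all stages and no smaller change was tried. These rates therefore do not cover changes under 2-fold, which most of the called members showed at 48 h. Alternatives were DESeq2 1.42.0 (size factors and Wald test), limma 3.58.1 on log2(FPKM + 1) and log2(FPKM + 0.1), no filter, a mean of at least 10 counts, the replicate letter as a block, only the libraries compared, a 1.5-fold cutoff and each library left out. A fit without the 4 GM libraries was added after seeing the data.

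The genes and lists were chosen with earlier results of these data known. The text names isoform families, landmark subunits and factors from a written list, for each comparison the 3 called members that rose most and the 3 that fell most (mean CPM 5 or more, A and B pairs agreeing in sign), the 5 highest and lowest members by FPKM and those that failed the filter; other genes called with PFI-3 or in the difference between stages, and single genes of the other lists, were named after their values were seen. Pathway and marker lists were summarised by counts and medians, with no set test. Values of 1 member are included in counts, sums and medians but are not reported here. Promoter windows and coordinates came from RefSeq tables of GRCm38.p6, matched by gene ID.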

Additional observations from a re-analysis of the deposited data

Results flagged for a closer look

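The test of the difference between stages passed for the 11 results given here, in each of which the PFI-3 effect at 48 h was lower than at the earlier stage (edgeR, Benjamini-Hochberg adjusted). Later stages were also treated longer, and this test cannot tell stage from length of treatment. Against GM the differences on the log2 scale were -7.21 for Cox6a2 (adjusted p = 2.74e-05), -0.84 for Uqcrq (0.00925), -0.71 for Ndufa6 (0.00127), -0.60 for Ndufv3 (0.013), -0.43 for Uqcr10 (0.0346), -0.38 for Ndufb4 (0.0329) and -0.33 for Ndufb10 (0.0411). The Cox6a2 value rests on 1 count over both DMSO libraries in GM and lay between -9.53 and -3.75 over the alternatives. Uqcr10 (0.23 in GM and -0.20 at 48 h) and Ndufb10 (0.17 and -0.16) were called with PFI-3 at neither stage alone. Against 24 h the differences were -0.58 for Ndufv3 (0.0128), -0.57 for Ndufa6 (0.0049), -0.40 for Cox7a2l (0.0181) and -0.39 for Ndufs3 (0.046). Of all tested genes, 6.29% were called lower in the difference against GM and 4.97% in that against 24 h. The shares of the members called lower were near these. Ndufa6 in both contrasts and Cox6a2 kept their calls with any 1 library left out. Each of the other results lost its call in at least 1 such fit.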

How the results depend on the processing

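Of 955 alternative values over 69 results for single genes, 766 kept their direction and side of the threshold, 165 lost and 14 gained the call, and 10 changed sign with no call in either fit (8 for Cox7a2, 1 each for Cox8a and Cox7a1 in GM). In 0 cases did a called gene change sign. Counts of respiratory chain genes called moved more. With PFI-3 in GM, where 4 were called, a fit of only the libraries compared called 0 (edgeR; 3 at an unadjusted p under 0.05), limma on log2 FPKM called 9 with either pseudocount, 1 or 0.1, a 1.5-fold cutoff left 1, and leaving out 1 library gave 2 to 8, the lowest without PFI-3 library A and the highest without PFI-3 library B. At 24 h (10 called) only the libraries compared gave 33, the fit without the 4 GM libraries, chosen after seeing the data, 31, the 1.5-fold cutoff 1, and leaving out 1 library 2 to 4. At 48 h (32 called) these gave 52, 54, 4 and 7 to 17, and limma gave 12 with a pseudocount of 1 and 11 with 0.1. In DMSO the 1.5-fold cutoff left 9 of 39 at 24 h against GM, 26 of 67 at 48 h against GM and 11 of 59 between 24 h and 48 h, and leaving out 1 library gave 26 to 39, 59 to 67 and 39 to 52, the lowest in each without DMSO library B of the later stage. The difference between 48 h and GM (7 called) gave 4 with the DESeq2 Wald test, with only the libraries compared and with the 1.5-fold cutoff, and 2 to 10 with 1 library left out (2 without PFI-3 library A or DMSO library B at 48 h, 10 without DMSO library B of GM). The difference between 48 h and 24 h (5 called) gave 3 with the Wald test, 28 with only the libraries compared and without the GM libraries, 0 with the 1.5-fold cutoff (19 at an unadjusted p under 0.05 with no cutoff), and 1 to 3 with 1 library left out. Relative to DMSO, the summed level in FPKM with PFI-3 was 103.2%, 101.7% and 93.98% in GM, at 24 h and at 48 h, in CPM 94.09%, 96.08% and 87.81%, and as a share of all FPKM 98.32% at 24 h. Counts of all genes under these alternatives, or at an unadjusted p, are not given beside them, so these moves are not read as particular to the members. The cause of these moves was not tested.

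Deviations of same-letter libraries from their group means correlated at 0.504 in GM, 0.029 at 24 h and 0.047 at 48 h, and the labels tie no letter to a shared culture or day. The letters were therefore not treated as pairs, although same-letter libraries did deviate together in GM. With the replicate block in the fit of 12 libraries, the members called numbered 6, 9 and 33 with PFI-3 in GM, at 24 h and at 48 h, 40, 68 and 61 between stages in DMSO, and 7 and 4 for the differences. With the replicate block in fits of only the libraries compared they were 3 in GM (0 without the block, with 741 and 32 of all genes called), 33 at 24 h, 58 at 48 h, 23 for DMSO at 24 h against GM, and 4 and 29 for the differences. Counts of all genes in the other block fits are not given here, so these numbers are not read as particular to the members. With 2 libraries per group, small changes and genes of few counts, such as Cox7a1 and Ndufaf3, are the least certain, and GM comparisons carry the largest spread.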
